A study of Mus musculus with 12 samples.

Results

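The suppressor of cytokine signalling (SOCS) family was followed in mouse macrophages and osteoclasts with and without lipopolysaccharide (LPS). Its 8 genes, Socs1 to Socs7 and Cish, were matched by symbol among the 54532 genes of the expression table. All 8 were found, and 7 of them were among the 11335 genes tested, those with at least 1 FPKM (fragments per kilobase of exon, scaled for the library) in at least 3 of the 12 libraries. Socs2 stayed under that minimum and is given by its levels. Socs1 passed through its LPS-treated libraries only, and Cish through the LPS-treated macrophages only, so these genes had to be high in those groups to be tested.

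The series holds 12 RNA-sequencing libraries in 4 groups of 3. Macrophages were grown from the bone marrow of wild-type mice with CMG supernatant as the source of the growth factor M-CSF. Untreated macrophages (MA_NT) were kept without RANKL, the cytokine that turns macrophages into bone-resorbing osteoclasts, and without LPS. LPS-treated macrophages (MA_LPS) had in addition 100 ng/mL LPS, a bacterial cell wall component, for 3 h on day 5. Osteoclasts had RANKL, labelled as 100 ng/mL, either without LPS (OC_NT) or with the same LPS treatment (OC_LPS). All groups thus share the wild-type background and M-CSF. The labels do not say that the 3 libraries of a group came from separate mice or cultures, so p-values measure the spread between these libraries, which may be technical.

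SOCS proteins are feedback inhibitors of cytokine receptors that signal through JAK kinases and STAT transcription factors. An SH2 domain binds phosphorylated tyrosines on receptors or kinases, and a SOCS box recruits a Cullin-5 ubiquitin ligase through elongins B and C. SOCS1 and SOCS3 also block JAK activity directly, and the genes of SOCS1, SOCS3 and CIS are themselves classic targets of STAT proteins. In macrophages LPS acts through Toll-like receptor 4, and the interferon-beta, IL-6 and IL-10 that these cells then release act back on them through JAK and STAT proteins.

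The start regions of Cish, Socs1 and Socs3 are shown because these genes had the highest LPS responses of the family in macrophages. They come from a set of RefSeq windows on GRCm38.p6, each from 250 bases before to 50 bases after the start. In the set used here 4 of the 8 genes had a window (Socs1, Socs3, Socs4 and Cish). The stretches below are chr16:10785537-10785706 on the minus strand, chr11:117969452-117969616 on the minus strand and chr9:107296654-107296683 on the plus strand, written 5′ to 3′ with matches to the searched motifs in capitals.
Socs1: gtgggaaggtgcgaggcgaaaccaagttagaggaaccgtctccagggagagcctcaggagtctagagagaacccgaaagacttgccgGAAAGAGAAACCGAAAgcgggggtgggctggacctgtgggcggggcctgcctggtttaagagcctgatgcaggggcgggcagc
Socs3: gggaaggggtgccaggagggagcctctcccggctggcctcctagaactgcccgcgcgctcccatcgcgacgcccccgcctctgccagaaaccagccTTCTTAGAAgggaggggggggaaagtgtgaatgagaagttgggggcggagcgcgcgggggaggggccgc
Cish: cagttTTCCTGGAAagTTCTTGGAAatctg
The capitals of Socs1 are 2 overlapping matches to the core of the element that interferon-activated factors bind (ISRE core, GAAA and GAAA with 2 free bases between), which begin 83 and 77 bases before the start. The capitals of Socs3 are 1 match to TTCNNNGAA, the palindrome that STAT dimers bind, which begins 154 bases before the start. The Cish stretch lies at the RefSeq start, inside an exon of the GENCODE M21 annotation, and holds 2 matches to TTCNNNGAA. Among 32851 RefSeq windows of the same length, with both strands searched, TTCNNNGAA was in 8.3% and the ISRE core in 3.44%. The NF-kB consensus was in 8.46% of the windows and in none of the 4 family windows, and the Socs4 window held none of the 3 motifs. Such matches describe letters only, and binding was not measured.

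Read totals recovered from the values lay between 15651711 and 20281399 per library. The summed level of 10 osteoclast markers was 16.3 to 29.0 FPKM in the macrophage libraries and 29200 to 32200 FPKM in the osteoclast libraries. The 8 macrophage markers stayed above 0 in osteoclasts, with summed levels of 1700 to 1800 FPKM against 2040 to 2510 FPKM in macrophages. Cd68 and Csf1r, which osteoclasts also express, made up most of that sum. The mean levels in untreated osteoclasts as a share of those in untreated macrophages were 0.342% for Cx3cr1, 0.877% for Mrc1, 0.952% for Fcgr1 and 7.74% for Adgre1. Stromal markers also moved with the cell type, with summed levels of 27.3 to 37.9 FPKM in macrophages and 0.624 to 1.54 FPKM in osteoclasts, as did neutrophil markers at 5.62 to 16.4 and 0.247 to 1.88 FPKM. Dendritic cell markers summed to 1.21 to 1.73 FPKM in untreated macrophages and 6.52 to 6.97 FPKM after LPS, mostly through Xcr1 (0.15 and 5.31 FPKM), and to 7.95 to 9.53 FPKM in osteoclasts, mostly through Itgax, while Flt3 was at 0 in LPS-treated macrophages and Cd209a at 0 in the other 3 groups. Their part in the results was not tested. In bulk libraries a smaller number of cells of a type and less RNA per cell cannot be told apart.

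At rest, the family was made up mostly of Socs4, Socs5, Socs6 and Socs7, genes whose products are linked to epidermal growth factor, insulin and stem cell factor receptors more than to JAK signalling. In untreated macrophages their mean levels were 6.49 FPKM for Socs4, 5.91 FPKM for Socs6, 5.31 FPKM for Socs5 and 4.27 FPKM for Socs7. The libraries of neighbouring genes in that order did not overlap. Socs3 followed at 1.18 FPKM, Socs2 at 0.324 FPKM, Socs1 at 0.18 FPKM and Cish at 0.0925 FPKM, where only Socs1 and Cish overlapped. In untreated osteoclasts the order was Socs4 (4.41 FPKM), Socs7 (3.67 FPKM), Socs6 (3.01 FPKM), Socs5 (2.78 FPKM), Socs2 (0.778 FPKM), Socs1 (0.281 FPKM), Socs3 (0.163 FPKM) and Cish (0.0327 FPKM), and only Socs6 and Socs5 overlapped.

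**Figure D1:**
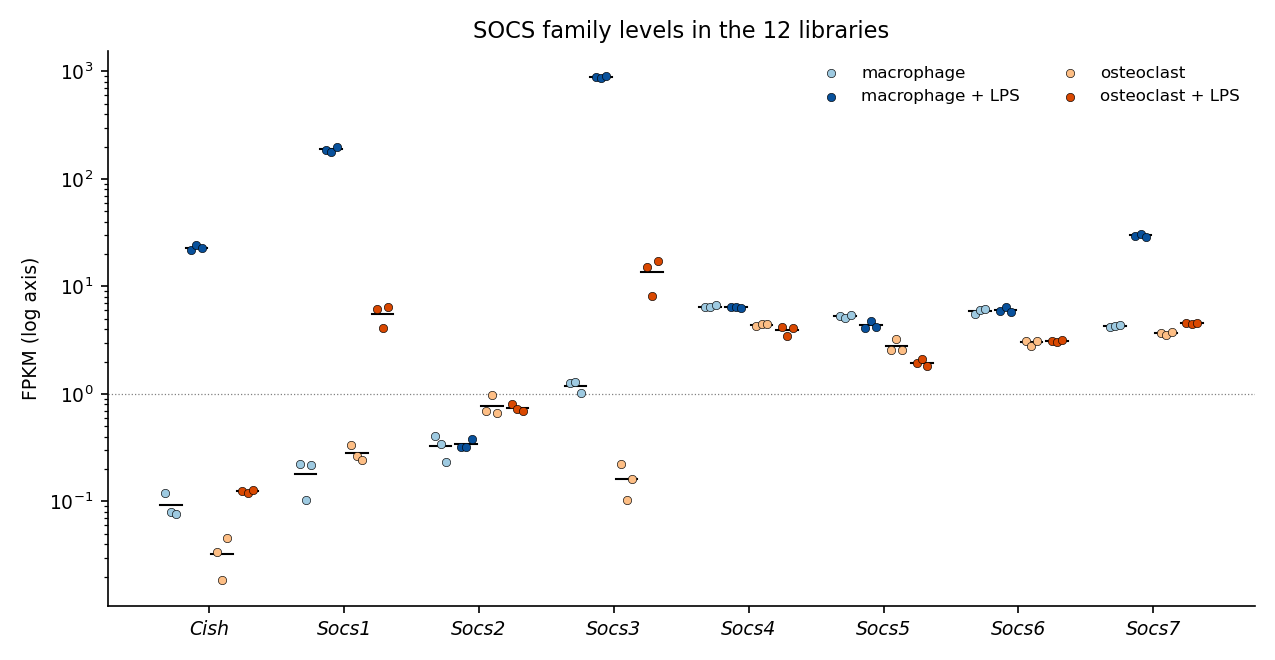
Level of each SOCS family gene in the 12 libraries (FPKM, log axis); points are libraries, coloured by group, and black lines are group means of 3 libraries, with the dotted line at 1 FPKM. Socs3 reached 871 to 907 FPKM in LPS-treated macrophages, against 8.06 to 17.1 FPKM in LPS-treated osteoclasts, while Socs4, Socs5 and Socs6 stayed between 1.82 and 6.67 FPKM in every library.

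LPS raised Socs3, Socs1, Cish and Socs7 in macrophages, and Socs1 and Cish were represented by at most 18 reads in each untreated library. Socs3, the inhibitor of receptors that use gp130 such as the IL-6 receptor, had 1.25, 1.28 and 1.01 FPKM in the untreated libraries and 879, 871 and 907 FPKM after LPS. The groups lay far apart, a 750-fold difference of means. Socs1, the main brake on interferon signalling, had 0.223, 0.102 and 0.216 FPKM (15, 7 and 14 reads) untreated and 187, 178 and 199 FPKM after LPS. Its means differed 1040-fold, with little spread among the treated libraries. Cish, whose product CIS binds receptors that signal through STAT5, had 0.121, 0.0795 and 0.077 FPKM (18, 12 and 11 reads) untreated and 21.8, 24.1 and 22.8 FPKM after LPS, a 248-fold difference. Socs7 had 4.18, 4.28 and 4.34 FPKM untreated and 29.6, 30.7 and 29.1 FPKM after LPS, a 6.99-fold rise.

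On the tested scale, log2(FPKM + 1), the differences were 8.67 for Socs3 (SE 0.19, limma adjusted p = 2.42e-12), 7.32 for Socs1 (SE 0.12, adjusted p = 1.95e-13), 4.45 for Cish (SE 0.06, adjusted p = 6.03e-14) and 2.55 for Socs7 (SE 0.04, adjusted p = 1.64e-13). Ranked from the highest among the 11335 genes tested, Socs3 was at place 9, Socs1 at 20, Cish at 111 and Socs7 at 382. The places of Socs1 and Cish are descriptions, since these genes were tested only because they were high after LPS. Cish shares 740 exon bases with Gm17040 and Gm17041 on the other strand, and no source used here says that reads were counted by strand, so its level is uncertain to that extent.

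The other members moved little. Socs5 had 5.34, 5.13 and 5.46 FPKM untreated and 4.08, 4.76 and 4.16 FPKM after LPS, and it fell by 0.24 on the log2 scale (SE 0.08, limma adjusted p = 0.0139). That call was lost without MA_LPS replicate 1, where the adjusted p was 0.0521. Socs4 had 6.39, 6.4 and 6.67 against 6.49, 6.4 and 6.35 FPKM, which differed by -0.01 on the log2 scale (SE 0.06, adjusted p = 0.844). Socs6 had 5.54, 6.05 and 6.14 against 5.96, 6.44 and 5.77 FPKM, a change of 0.03 (SE 0.06, adjusted p = 0.65). The untreated and treated libraries of both genes overlapped. Socs2, known for restraining growth hormone signalling, had 0.403, 0.339 and 0.231 FPKM untreated and 0.321, 0.323 and 0.381 FPKM after LPS, also overlapping.

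In all, 5 of the 7 tested members were called, 4 higher and 1 lower, beside 69.9% of all genes tested (36.8% higher and 33.1% lower). The untreated and treated libraries of 5 members did not overlap, beside 74.0% of all genes. The count includes Socs1 and Cish, which passed the filter through LPS-treated libraries only, and the share called was near the background. The FPKM values are scaled so that the median gene had a log2 difference of 0.02. When each library was instead scaled to an equal sum (TPM), the median gene shifted to -0.55. The 4 rises then kept their direction, at 8.62 for Socs3, 8.11 for Socs1, 5.41 for Cish and 2.09 for Socs7, while Socs4, Socs5 and Socs6 were all called lower, at -0.63, -0.88 and -0.58. Relative to the median gene under that scaling these were -0.08, -0.33 and -0.03.

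Osteoclasts given LPS raised Socs3 and Socs1, to levels that were a small share of those in LPS-treated macrophages. Socs3 had 0.225, 0.102 and 0.163 FPKM (12, 5 and 8 reads) in untreated osteoclasts and 15.3, 8.06 and 17.1 FPKM after LPS, an 82.6-fold difference of means. OC_LPS replicate 2 was the lowest of the treated libraries, yet above every untreated one. Socs1 had 0.335, 0.265 and 0.243 FPKM (18, 13 and 12 reads) untreated and 6.1, 4.08 and 6.39 FPKM after LPS, a 19.7-fold difference, again with replicate 2 lowest. Socs7 rose from 3.66, 3.57 and 3.77 FPKM to 4.58, 4.46 and 4.56 FPKM, 1.24-fold, with narrow groups that did not overlap. Socs5 fell from 2.58, 3.22 and 2.55 FPKM to 1.92, 2.13 and 1.82 FPKM.

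The log2 differences in osteoclasts were 3.58 for Socs3 (SE 0.19, limma adjusted p = 9.59e-08), 2.33 for Socs1 (SE 0.12, adjusted p = 5.31e-08), 0.25 for Socs7 (SE 0.04, adjusted p = 0.00103) and -0.35 for Socs5 (SE 0.08, adjusted p = 0.00792). Without OC_LPS replicate 2, those of Socs3 and Socs1 were 3.89 and 2.5. With only the osteoclast groups in the fit, the adjusted p of Socs5 was 0.051 at the same difference. Socs3 was at place 29 from the highest and Socs1 at place 71 among the genes tested. In all, 4 of 7 members were called, 3 higher and 1 lower, beside 17.7% of all genes (11.1% higher and 6.59% lower). The libraries of 6 members did not overlap, beside 34.0% of all genes. With so few members, with Socs1 tested only through LPS-treated libraries, and with members chosen with earlier results known, that share is a description.

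Cish was close to the floor in osteoclasts. Its untreated libraries had 0.0338, 0.0184 and 0.0458 FPKM from 4, 2 and 5 reads, and the treated ones 0.126, 0.121 and 0.128 FPKM from 16, 12 and 15 reads. The groups did not overlap, and the means differed 3.83-fold. On the log2(FPKM + 1) scale, which compresses such low values, the difference was 0.12 (SE 0.06, limma adjusted p = 0.165) and was not called. It was called with a pseudocount of 0.1 FPKM (difference 0.77, adjusted p = 0.00664) and by voom on the recovered reads (difference 1.87, adjusted p = 0.0106). Whether the low Cish level changed with LPS in osteoclasts therefore depends on the scale.

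Socs4 had 4.25, 4.49 and 4.49 FPKM in untreated and 4.18, 3.45 and 4.13 FPKM in LPS-treated osteoclasts, a log2 difference of -0.14 (SE 0.06, limma adjusted p = 0.123). It passed the threshold with values rescaled to TPM (-0.23, adjusted p = 0.031) and after quantile normalization (-0.18, adjusted p = 0.0406). Socs6 had 3.11, 2.79 and 3.13 against 3.08, 3.04 and 3.17 FPKM, a change of 0.03 on the log2 scale (SE 0.06, adjusted p = 0.76). Socs2 had 0.694, 0.975 and 0.667 FPKM untreated and 0.8, 0.728 and 0.69 FPKM after LPS, with overlapping groups.

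The LPS effect was smaller in osteoclasts than in macrophages for Socs3, Socs1, Cish and Socs7. The interaction, the log2 difference in osteoclasts minus that in macrophages, was -5.09 for Socs3 (SE 0.27, limma adjusted p = 1.67e-08), -4.99 for Socs1 (SE 0.16, adjusted p = 3.13e-10), -4.33 for Cish (SE 0.08, adjusted p = 1.16e-11) and -2.3 for Socs7 (SE 0.06, adjusted p = 3.66e-11). These were at places 9, 10, 27 and 265 from the lowest among the genes tested. The values for Socs4 (-0.13, SE 0.08, adjusted p = 0.213), Socs5 (-0.11, SE 0.11, adjusted p = 0.43) and Socs6 (0.0, SE 0.08, adjusted p = 0.994) did not pass. The count called was 4 of 7, all lower, beside 56.6% of all genes (26.6% higher and 30.0% lower). Cish passed the filter in LPS-treated macrophages alone, which favoured a negative value, and Socs1 passed through LPS-treated libraries alone, so the count and its direction describe the members and support nothing.

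The order of these 4 interactions depended on the scale. As differences of log2 ratios of mean FPKM they were -6.02 for Cish, -5.73 for Socs1, -3.18 for Socs3 and -2.5 for Socs7. In voom on the recovered reads they were -6.06 for Cish (SE 0.57), -5.79 for Socs1 (SE 0.59), -3.25 for Socs3 (SE 0.9) and -2.5 for Socs7 (SE 0.08), and all 4 were called, with the highest adjusted p, 0.00483, for Socs3. With values rescaled to TPM the 4 kept their direction, at -5.11, -4.97, -3.99 and -1.88 in the same order. Socs4, Socs5 and Socs6 were then called with positive values of 0.4, 0.39 and 0.55, under a scaling that moved the median gene to 0.51.

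**Figure D2:**
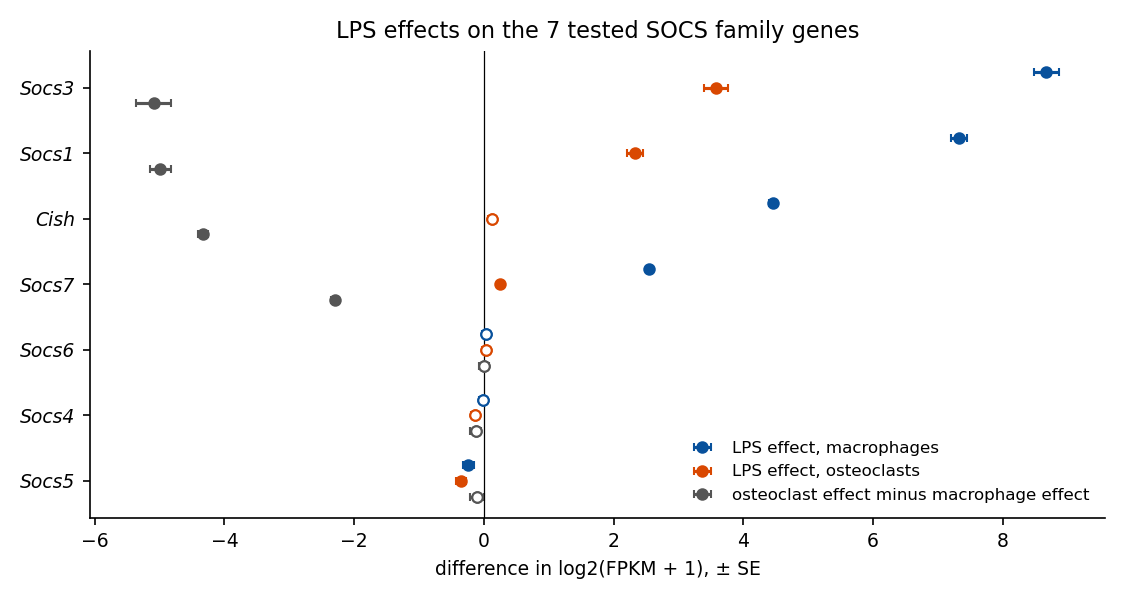
LPS effect on each tested SOCS family gene in macrophages (blue) and osteoclasts (orange), and their difference (grey), as differences in log2(FPKM + 1) with standard errors; filled points passed an adjusted p of 0.05 and open points did not. For Socs3 the effect was 8.67 in macrophages and 3.58 in osteoclasts, and for Cish it was 4.45 and 0.12.

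Without LPS, osteoclasts had less Socs3, Socs6, Socs5, Socs4 and Socs7 than macrophages. Socs3 was 7.23-fold lower, with a log2 difference of -0.91 (SE 0.19, limma adjusted p = 0.000965), and the library values did not overlap. Socs6 stood at 50.9% of the macrophage mean (log2 difference -0.79, SE 0.06, adjusted p = 6.73e-08) and Socs5 at 52.4% (-0.74, SE 0.08, adjusted p = 2.14e-06). Socs4 stood at 68.0% (log2 difference -0.47, SE 0.06, adjusted p = 1.13e-05). Socs7 stood at 85.9% (log2 difference -0.17, SE 0.04, adjusted p = 0.00153), a call that was lost after quantile normalization (-0.07, adjusted p = 0.146).

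Socs1 and Cish did not pass in that comparison, where Socs1 differed by 0.12 (SE 0.12, limma adjusted p = 0.368) and Cish by -0.08 (SE 0.06, adjusted p = 0.214) on the log2 scale. Both had few reads, and with a pseudocount of 0.1 FPKM both were called, Socs1 higher in osteoclasts (0.47, adjusted p = 0.0499) and Cish lower (-0.53, adjusted p = 0.0102). Socs2 was the one member with a higher mean in osteoclasts in both conditions. Its mean was 2.4-fold that of macrophages without LPS and 2.16-fold with LPS, and the libraries of the cell types did not overlap. In a fit with no filter on low values its log2 differences were 0.42 (limma adjusted p = 0.00102) and 0.37 (adjusted p = 0.00204). The count called was 5 of 7, all lower, beside 77.8% of all genes (38.8% higher and 39.0% lower), and the libraries of all 7 did not overlap, beside 81.4% of all genes.

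With LPS, all 7 tested members were lower in osteoclasts, beside 83.9% of genes called (40.9% higher and 43.0% lower), and the libraries of all 7 did not overlap, beside 83.6% of all genes. For Cish this direction was fixed by the filter. The mean in osteoclasts was 0.546% of that in macrophages for Cish, 1.52% for Socs3, 2.94% for Socs1 and 15.2% for Socs7. For Socs5, Socs6 and Socs4 it was 45.1%, 51.1% and 61.1%, near their values without LPS. The log2 differences ran from -6.0 for Socs3 (SE 0.19, limma adjusted p = 2.46e-11) to -0.6 for Socs4 (SE 0.06, adjusted p = 9.91e-07).

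Levels of Socs1 and Socs3 in LPS-treated osteoclasts lay in the range that some macrophage markers had there. The marker means in LPS-treated osteoclasts as a share of those in LPS-treated macrophages were 0.679% for Cx3cr1, 0.814% for Mrc1, 0.931% for Fcgr1, 7.01% for Mertk, 9.28% for Adgre1 and 17.6% for Itgam, beside 69.7% for Csf1r and 175% for Cd68. The part of any remaining macrophages in the osteoclast values of Socs1 and Socs3 was not tested.

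**Figure D3:**
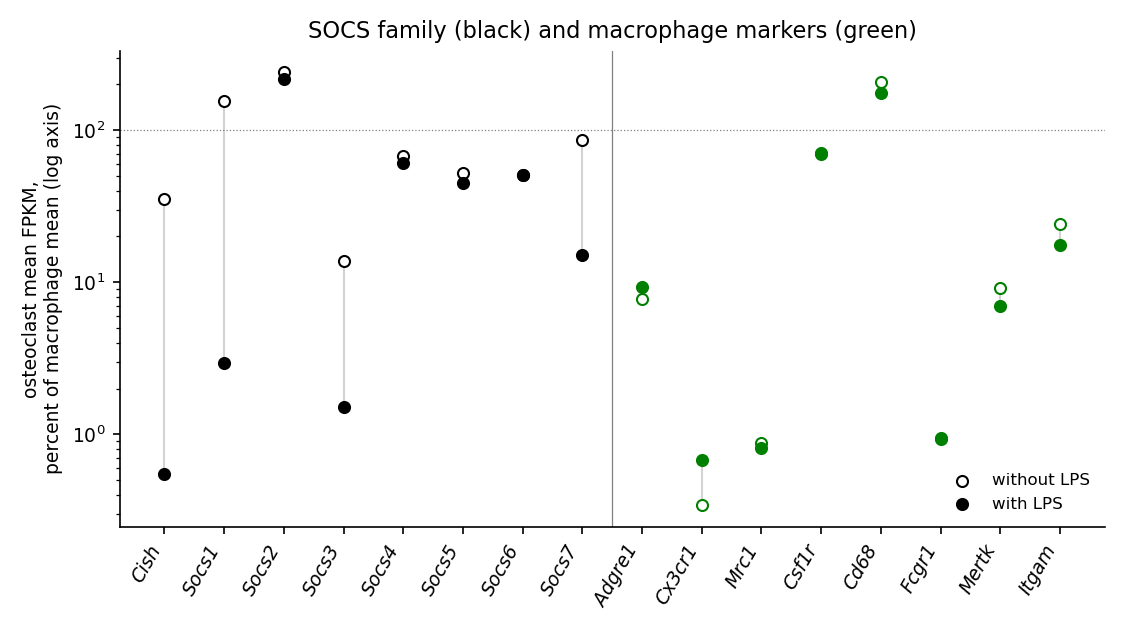
Mean FPKM in osteoclasts as a percent of that in macrophages (log axis), without LPS (open) and with LPS (filled), for the 8 SOCS family genes (black) and 8 macrophage markers (green); the dotted line marks equal means. Cish went from 35.3% to 0.546% and Socs3 from 13.8% to 1.52%, while Socs6 stood at 50.9% and 51.1%.

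Because FPKM is per length of gene, the levels of the members can be added. The summed level was 23.8 ± 0.35 FPKM (SD, n = 3) in untreated and 1140 ± 27.5 FPKM in LPS-treated macrophages. In osteoclasts it was 15.1 ± 0.277 FPKM untreated and 33.4 ± 6.41 FPKM after LPS. Socs3 made up 4.98% ± 0.69 (SD, n = 3) of the sum in untreated macrophages and 77.5% ± 0.201 after LPS. In osteoclasts its share was 1.09% ± 0.424 untreated and 39.5% ± 7.51 after LPS, with 30.9% in the lowest library, OC_LPS replicate 2. The share of Socs1 after LPS was 16.4% ± 0.525 in macrophages and 16.5% ± 0.686 in osteoclasts. Socs4 to Socs7 together held 41.4% ± 7.64 (SD, n = 3) of the sum in LPS-treated osteoclasts and 4.08% ± 0.221 in LPS-treated macrophages, with 13.9% ± 2.77 for Socs7 and 11.9% ± 1.22 for Socs4 after LPS, against 2.61% ± 0.129 and 0.561% ± 0.0177 in macrophages.

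**Figure D4:**
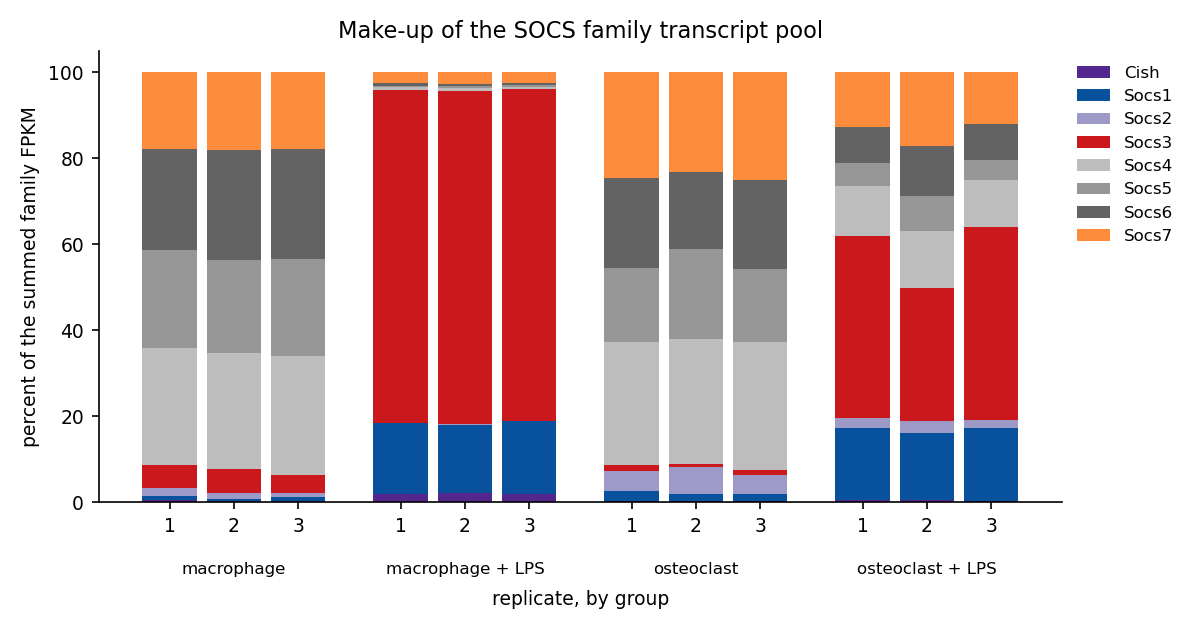
Share of each SOCS family gene in the summed FPKM of the 8 genes (percent), 1 bar per library in the 4 groups. Socs3 (red) held 77.2% to 77.6% in the LPS-treated macrophage libraries and 30.9% to 45.0% in the LPS-treated osteoclast libraries.

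The genes most like each member over the 12 libraries were found by the root-mean-square difference of log2(FPKM + 1) profiles, each centred on its own mean. For Socs1 they were Il6 (0.143), Ifi205 (0.174) and Cxcl9 (0.208), which encode an inflammatory cytokine, an interferon-induced protein and an interferon-induced chemokine. Il6, for example, had a mean of 133 FPKM in macrophages and 4.86 FPKM in osteoclasts after LPS, and 2 and 0 reads in all in the untreated groups. For Socs3 they were Il27 (0.436), Mx1 (0.498) and Il1b (0.535), at greater distances. For Cish they were Lipg (0.139), Nfil3 (0.141) and Gm6377 (0.277). For Socs7 they were Nr4a3 (0.076), Ccl17 (0.098) and Xcr1 (0.103), genes with 4.95 to 5.31 FPKM in LPS-treated macrophages and less than 1 FPKM elsewhere. Socs7 itself had means of 3.67 to 4.53 FPKM elsewhere and rose 6.99-fold in macrophages, while Nr4a3 went from 0.0147 to 5.15 FPKM there. The match is thus one of differences in log2(FPKM + 1) and not of folds.

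For the steadier members the nearest profiles were those of genes that mainly differed by cell type. They were Pttg1ip (0.058), L1cam (0.065) and Snx9 (0.066) for Socs4, Sirpa (0.079), Map3k3 (0.093) and Coro7 (0.096) for Socs5, and Pdia4 (0.044), 5830432E09Rik (0.048) and Pir (0.06) for Socs6. With quantile normalization all 3 of the nearest genes were kept for Socs1 and Socs3, 2 for Cish, 1 for Socs7 and none for Socs4, Socs5 and Socs6. Rescaling to TPM kept 2 each for Socs1, Socs3 and Cish, 1 for Socs4 and Socs6, and none for Socs5 and Socs7. Il27, Il1b, L1cam, Coro7, Pdia4, 5830432E09Rik and Gm6377 share exon bases with another gene, so their own levels are uncertain to that extent.

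Genes of the pathway were taken from 9 lists with 117 genes, of which 86 were tested. In macrophages 55 rose and 15 fell with LPS, with a median log2 difference of 0.46, and in osteoclasts 26 rose and 6 fell, with a median of 0.09. The medians over all genes tested were 0.02 and 0.01. Of all genes, 36.8% rose and 33.1% fell in macrophages, and 11.1% rose and 6.59% fell in osteoclasts. The interaction was negative in 50 and positive in 12, with a median of -0.41 beside -0.01 over all genes, of which 30.0% were negative and 26.6% positive. With values rescaled to TPM, the macrophage split became 34 higher and 40 lower, the osteoclast split 22 higher and 12 lower, and the interaction split 32 negative and 35 positive. Under that scaling 1797 of all genes rose and 7933 fell in macrophages, 940 rose and 1221 fell in osteoclasts, and 1572 interactions were negative and 7175 positive. After quantile normalization the pathway genes split into 43 higher and 25 lower in macrophages, 23 and 13 in osteoclasts, and 43 negative and 21 positive interactions, where all genes split into 3051 and 5193, 947 and 1514, and 2734 negative and 4090 positive.

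Cytokine ligands with high levels after LPS included Il6, Il12b, Il27, Il10 and Ifnb1. Of 14 listed, 8 were tested, and Il6, Ifnb1, Csf3 and Il12b passed the filter through LPS-treated libraries only, Ifnb1 and Csf3 through LPS-treated macrophages only. These 4 had to be higher after LPS, Il10 and Il27 also needed LPS-treated libraries to pass, and the counts describe the list without supporting a direction. In macrophages 8 were called higher, with 7 when rescaled to TPM, beside 36.8% of all genes, and in osteoclasts 5 were called higher, beside 11.1%. The interaction was negative in 7 of 8 under both scalings, beside 30.0% of all genes for the FPKM values. Il6 had 133 ± 6.38 FPKM (SD, n = 3) in LPS-treated macrophages, at least 2480-fold above a floor of 3 reads per library in the untreated group, and 4.86 ± 1.27 FPKM in LPS-treated osteoclasts, at least 68.5-fold above that floor. Ifnb1, the gene of interferon-beta, was listed at 0 in all untreated libraries and had 60.2 ± 10.7 and 0.784 ± 0.217 FPKM after LPS, at least 346-fold and 3.42-fold above the floor. Il10 went from 0.761 to 82.6 FPKM in macrophages and from 0.464 to 1.7 FPKM in osteoclasts, with an interaction of -4.7.

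Receptors rose in 13 and fell in 3 of 19 tested in macrophages, beside 36.8% and 33.1% of all genes. But with values rescaled to TPM 7 rose and 9 fell, beside 1797 and 7933 of 11335 genes. The list median was 0.41 beside 0.02 over all genes, and -0.19 beside -0.55 when rescaled to TPM. In osteoclasts 3 rose and none fell, with a median log2 difference of 0.03, beside 11.1% and 6.59% of all genes. The count of rises was near that share. With values rescaled to TPM 1 rose and 2 fell, beside 940 and 1221 of 11335 genes. Il10ra, the ligand-binding chain for IL-10, had 29.4, 221, 1.51 and 6.4 FPKM in MA_NT, MA_LPS, OC_NT and OC_LPS, with log2 differences of 2.87 (limma adjusted p = 1.51e-09) in macrophages and 1.53 (adjusted p = 6.6e-06) in osteoclasts. Il4ra, a chain of the IL-4 receptor that SOCS1 is known to restrain, had 50.6, 248, 5.14 and 6.0 FPKM. It shares 571 exon bases with Gm44876 on the other strand. Il6st, the gene of gp130, through which SOCS3 acts, fell by 0.47 in macrophages (adjusted p = 1.18e-06) and rose by 0.18 in osteoclasts (adjusted p = 0.0174) on the log2 scale. The osteoclast call was lost when values were rescaled to TPM (0.12, limma adjusted p = 0.171).

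All 4 JAK kinase genes rose in macrophages, with a median log2 difference of 1.02, beside 36.8% of all genes. With values rescaled to TPM 3 of 4 were called higher, beside 1797 of 11335 genes. In osteoclasts Jak2 and Tyk2 rose, beside 11.1% of all genes. All 4 interactions were negative, beside 30.0% of all genes, and 3 of them with values rescaled to TPM, beside 1572 of 11335 genes. Jak2, the kinase of many single-chain cytokine receptors, had 9.72, 171, 4.11 and 18.5 FPKM in the same order of groups, so that it rose by 4.0 and 1.9 on the log2 scale, and its interaction was -2.1 (SE 0.19, limma adjusted p = 1.9e-06). The 6 tested STAT genes also rose in macrophages, with a median of 2.02, and 5 rose and Stat6 fell with values rescaled to TPM. In osteoclasts 4 rose, with a median of 0.32, beside 11.1% of all genes, and 5 interactions were negative, beside 30.0%. On the TPM scale 3 rose in osteoclasts, beside 940 of 11335 genes. There 5 interactions were negative and 1 positive, beside 1572 and 7175 of all genes. Stat5a, which encodes a factor known to drive Cish in lymphoid cells, had 3.27, 54.8, 1.83 and 2.96 FPKM, and its interaction was -3.23. Stat3 had 10.9, 42.1, 8.65 and 9.78 FPKM, and its interaction was -1.7. These STAT genes overlap by 72 exon bases on opposite strands.

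Of 10 genes known as STAT-induced, 6 rose and 4 fell in macrophages, with a median of 2.62, beside 36.8% and 33.1% of all genes. In osteoclasts 7 rose and 1 fell, with a median of 1.38, beside 11.1% and 6.59% of all genes. The counts were the same with values rescaled to TPM. Irf1, an interferon-induced transcription factor, had 7.17, 375, 2.6 and 20.6 FPKM. Pim1, a kinase gene, had 3.19, 176, 1.18 and 9.15 FPKM. Gbp2, which encodes an interferon-induced guanylate-binding protein, had 1.6, 419, 0.262 and 21.9 FPKM. The interactions were -2.95 for Irf1, -3.2 for Pim1 and -3.2 for Gbp2. But the list had no shared direction, with 5 negative and 3 positive interactions among the 10, beside 30.0% and 26.6% of all genes. With values rescaled to TPM there were 5 and 5, beside 1572 and 7175 of 11335 genes. For Gbp2 the interaction was -1.65 by voom on the recovered reads and was not called there (adjusted p = 0.102). Myc went the other way, falling from 23.7 to 1.82 FPKM in macrophages and standing at 9.57 and 10.9 FPKM in osteoclasts. Irf1, Pim1 and Gbp2 share exon bases with transcripts on the other strand.

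Among 12 other inhibitors of JAK and STAT signalling, 6 rose and 3 fell in macrophages, beside 36.8% and 33.1% of all genes. In osteoclasts 2 rose and 3 fell, beside 11.1% and 6.59% of all genes. With values rescaled to TPM the macrophage split turned to 3 higher and 8 lower and the osteoclast split to 2 and 5. All genes then split into 1797 and 7933, and 940 and 1221. After quantile normalization the splits of the list were 4 and 6, and 2 and 5, beside 3051 and 5193, and 947 and 1514. Usp18, which blocks the interferon-alpha receptor, rose in both cell types, from 1.08 to 137 FPKM and from 0.274 to 9.73 FPKM, but it needed LPS-treated libraries to pass the filter, so that the rise was favoured. Its interaction was -3.02 on the log2(FPKM + 1) scale and -1.84 as a difference of log2 ratios of mean FPKM. Ptpn2, a phosphatase of JAK proteins, went from 6.25 to 26.1 FPKM and from 6.8 to 9.75 FPKM, and its interaction was -1.44. Sh2b3, an adaptor that restrains JAK2, fell from 48.2 to 12.6 FPKM in macrophages and stood at 32.3 and 29.6 FPKM in osteoclasts. Usp18 and Sh2b3 share exon bases with genes on the other strand.

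**Figure D5:**
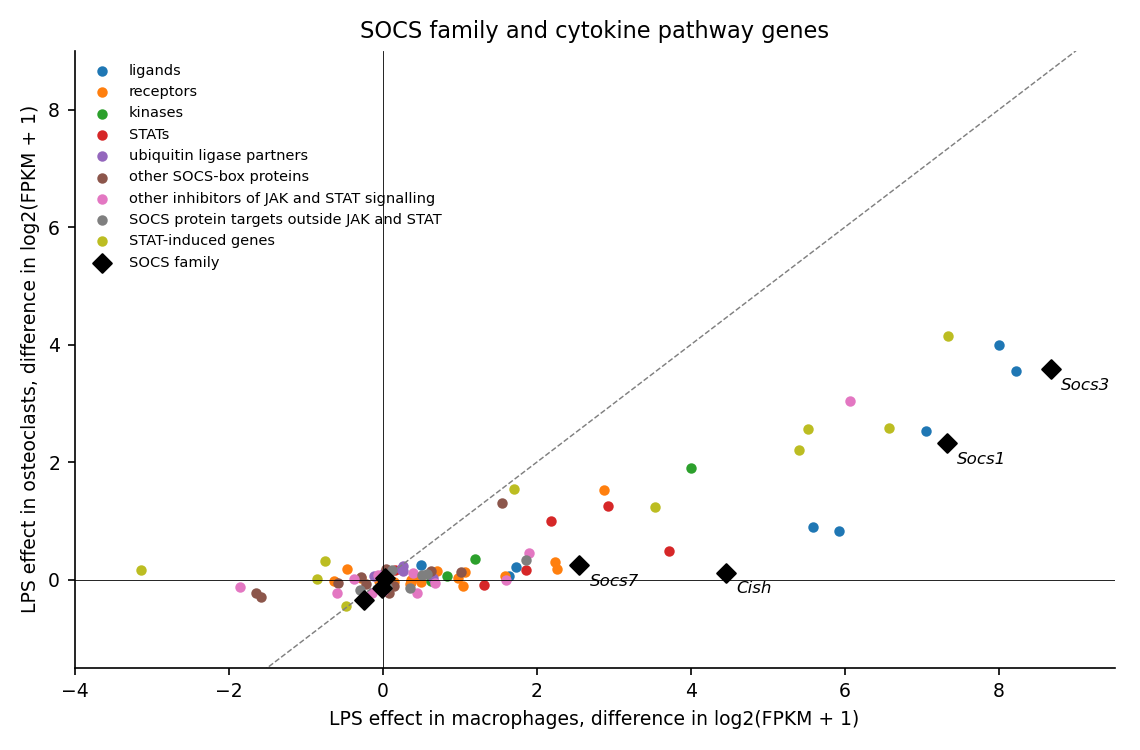
LPS effect in macrophages (x axis) and in osteoclasts (y axis) on 86 tested genes of the cytokine pathway lists (coloured by list) and the 7 tested SOCS family genes (black diamonds), as differences in log2(FPKM + 1); the dashed line marks equal effects. Socs3, Socs1, Cish and Socs7 lie below the line, Cish and Socs7 with osteoclast effects of 0.12 and 0.25.

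The calls for the ubiquitin ligase partners of SOCS proteins turned with the scaling. Of 6 tested, 4 rose and none fell in macrophages, beside 36.8% and 33.1% of all genes. But none rose and 5 fell with values rescaled to TPM, and 1 rose and 2 fell after quantile normalization. All genes split into 1797 higher and 7933 lower, and 3051 and 5193, under those scalings. The median log2 differences of the list were 0.25, -0.39 and -0.09, beside 0.02, -0.55 and -0.14 over all genes. In osteoclasts Eloc was called higher (0.24), beside 11.1% of all genes, and no partner was called under either of those scalings. Cul5, the scaffold of the ligase, had 5.71, 5.82, 7.14 and 7.82 FPKM, and Elob had 59.6, 70.5, 54.4 and 62.4 FPKM. Both share exon bases with genes on the other strand. Of 27 genes of other SOCS-box proteins 13 were tested. In macrophages 4 rose and 4 fell, with a median of 0.04, beside 36.8% and 33.1% of all genes. On the TPM scale 2 rose and 10 fell (median -0.52, beside -0.55 over all genes), and after quantile normalization 3 rose and 5 fell. In osteoclasts 1 rose and 2 fell, beside 11.1% and 6.59% of all genes. The counts there were 1 and 3 when rescaled to TPM and 1 and 4 after quantile normalization. Spsb1 encodes a protein that directs inducible nitric oxide synthase to degradation. It was the SOCS-box gene outside the family that rose in both cell types, from 11.1 to 34.5 FPKM and from 2.15 to 6.73 FPKM. It shares 103 exon bases with Gm13070 on the other strand. Its log2 differences were 1.55 (limma adjusted p = 2.75e-08) and 1.3 (adjusted p = 1.96e-06), and the interaction of -0.26 was not called (adjusted p = 0.134), though on the TPM scale it was 0.47 (adjusted p = 0.0191), beside 0.51 for the median gene.

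SOCS proteins also act on signalling proteins outside the JAK and STAT pathway. Of 8 such genes tested, 4 rose and 1 fell in macrophages, beside 36.8% and 33.1% of all genes. Rela was the gene called in osteoclasts, beside 17.7% of all genes. After rescaling to TPM 1 rose and 3 fell in macrophages (median -0.07, beside -0.55 over all genes), and after quantile normalization 4 rose and 2 fell. In osteoclasts 1 rose and 1 fell when rescaled to TPM, after quantile normalization and by voom. Tirap, the Toll-like receptor adaptor that SOCS1 directs to degradation, had 5.57, 8.77, 5.21 and 5.64 FPKM, and its interaction was -0.48. It shares 485 exon bases with Gm39318 and Srpr on the other strand. Neither its rise in macrophages nor its interaction was called after rescaling to TPM (0.01 and 0.03, limma adjusted p = 0.917 and 0.816). Over the 8 genes no interaction was positive and 4 were negative, beside 26.6% and 30.0% of all genes. On the TPM scale the counts were 2 and 1, where the median gene stood at 0.51. Rela, which encodes an NF-kB subunit that SOCS1 is known to target, had 32.5, 121, 29.9 and 38.2 FPKM, and it rose by 1.86 and 0.34 on the log2 scale, the interaction being -1.52, and -0.96 after rescaling to TPM. Traf6, an adaptor of both Toll-like receptors and the RANKL receptor, had 5.9, 8.85, 14.4 and 15.3 FPKM.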

How the data were processed

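RNA was sequenced from 12 libraries in 4 groups of 3, grouped by sample title. The authors deposited FPKM values for 54532 genes. Per the submitters' processing notes, fastp, STAR, featureCounts, DESeq2 and mm10 were named, with no role or version. Strand use in counting is not given in the sources used here. FPKM values were whole multiples of a step per gene (tolerance 0.02 reads), so whole reads were recovered for 25754 of 25854 genes above 0 (99.6%), at GENCODE M21 exon lengths for 25015 of them. Library denominators are inferred from those steps, and the median gene barely moved between groups, so a change is relative to the typical gene.

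The 11335 genes that reached 1 FPKM in 3 or more libraries were tested on log2(FPKM + 1) with limma 3.58.1 in R 4.3.3, in 1 fit of 4 group means with a variance trend. The tests are two-sided with Benjamini-Hochberg adjustment over all genes tested, and an adjusted p under 0.05 was a call. The scale understates changes of low genes. Folds are ratios of mean FPKM, and a group with at most 3 reads in every library was set to that floor, giving a bound that covers counting error only. Scripts were tested on simulated data.

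Every family member was named, with the 3 genes nearest in profile for each tested member and any gene of the pathway or marker lists. Members, lists and tests were chosen with earlier results of these data known. Alternatives were a pseudocount of 0.1 FPKM, no low-value filter, a minimum mean of 5 FPKM, rescaling to TPM, quantile normalization, only the groups compared, a replicate block, voom on recovered reads and each library left out. By voom 7948, 2410, 8944, 9418 and 6094 genes were called for LPS in macrophages, LPS in osteoclasts, osteoclasts against macrophages without and with LPS, and the interaction.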

Additional observations from a re-analysis of the deposited data

Results flagged for a closer look

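A test of the difference itself, the interaction in limma, separated macrophages and osteoclasts in their LPS effect on 4 SOCS family genes. The log2 difference in osteoclasts minus that in macrophages was -5.09 for Socs3 (adjusted p = 1.67e-08), -4.99 for Socs1 (adjusted p = 3.13e-10), -4.33 for Cish (adjusted p = 1.16e-11) and -2.3 for Socs7 (adjusted p = 3.66e-11). Cish entered the test through the LPS-treated macrophages only, so its negative value was favoured by the filter, and Socs1 entered through LPS-treated libraries only; both are given as descriptions. The order of the 4 depended on the scale. As differences of log2 ratios of mean FPKM they were -3.18 for Socs3, -5.73 for Socs1, -6.02 for Cish and -2.5 for Socs7. For Socs3, Socs1 and Socs7 all 3 LPS-treated macrophage libraries lay above all 3 LPS-treated osteoclast libraries. Of all genes, 83.6% had no overlap between these groups. For Cish that separation was fixed by the filter.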

How the results depend on the processing

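Under the alternatives, 640 values of the members' log2 differences kept direction and side of the threshold, 15 changed sign, 10 newly passed it and 3 no longer did. The number of members called for LPS in macrophages was 5, and 3 to 5 over the fits that left out 1 library; it was 3 without MA_LPS replicate 1, where 6 were tested. For osteoclasts against macrophages without LPS it was 3 rather than 5 with a mean of at least 5 FPKM, where 5 were tested. For the interaction it was 7 rather than 4 with values rescaled to TPM, and 3 to 4 over the left-out libraries. Differences near 0 changed sign. For LPS in macrophages, Socs6 was -0.58 with values rescaled to TPM, -0.04 after quantile normalization and -0.01 to 0.06 with libraries left out, and Socs4 -0.02 to 0.0. For LPS in osteoclasts Socs6 was -0.03 with values rescaled to TPM and -0.01 to 0.05 with libraries left out. The interaction was 0.4 for Socs4 and 0.39 for Socs5 with values rescaled to TPM, and -0.04 to 0.04 for Socs6 with libraries left out. With values rescaled to TPM the median gene stood at -0.55 for LPS in macrophages, -0.06 for LPS in osteoclasts and 0.51 for the interaction, against 0.02, 0.01 and -0.01 as deposited; the cause was not tested. For osteoclasts against macrophages without LPS, Cish was also called with values rescaled to TPM (-0.31) and by voom (-1.41).

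Same-numbered libraries showed little shared deviation (18 pairs, correlations -0.07 to 0.1), and a library was closest to its own number in 14 of 36 comparisons. Between untreated and LPS-treated libraries, same-numbered correlations were 0.1, 0.1 and -0.05 in macrophages and 0.07, 0.08 and 0.03 in osteoclasts. Values this small cannot decide whether the numbers pair libraries within a cell type. With the replicate block, 5, 4, 5, 7 and 4 members and 71, 31, 68, 82 and 61 pathway genes were called in the 5 comparisons, and none of 35 member differences changed its call or direction. Depth limits Cish, Socs1 and Socs3 where untreated libraries held under 20 reads.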

Other observations

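Some partners of the members had higher means in osteoclasts than in macrophages, both without and with LPS. Ghr, the growth hormone receptor that SOCS2 restrains, had mean levels of 0.252, 0.289, 6.6 and 6.05 FPKM in MA_NT, MA_LPS, OC_NT and OC_LPS. Lif, a ligand of receptors that use gp130, had 0.504, 3.97, 25.4 and 29.6 FPKM, and it was the one ligand of the list called higher in osteoclasts without LPS (4.15, adjusted p = 1.75e-11). Egfr, the growth factor receptor that SOCS4 and SOCS5 are known to bind, had 0.15, 0.245, 2.34 and 2.73 FPKM. Ghr and Egfr passed the filter through osteoclast libraries only, so their higher level there is a description.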
